A study of Mus musculus with 15 samples.

Results

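The 7 insulin-like growth factor (IGF) genes described here are the binding protein genes Igfbp2, Igfbp3, Igfbp4 and Igfbp5, the receptor genes Igf1r and Igf2r, and the ligand gene Igf2. They are 7 of the 49585 genes in the deposited count table and were taken by symbol, and all 7 had counts high enough to be among the 15223 genes tested. The set was put together with results of these data known. Igfbp5 was chosen by its CPM, which had been seen to be strongly higher in one group, PD032, than elsewhere, so its level there is given below as a description with no test. The choice used no threshold. All libraries came from wild-type E14 cells, a mouse embryonic stem cell line, kept on gelatin with Lif at 4 ng/ml and a pair of inhibitors, CHIR99021 at 3 µM and PD0325901 at 0.4 µM, and then embedded in growth factor reduced Matrigel, a basement membrane gel, at 2000 cells per µl.

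Each gel was covered with N2B27, a serum-free medium whose supplements include insulin, and 3 libraries of poly(A)-selected RNA were made for each of 5 additions. The groups were PD032+ Aurka inh (called the combination below), PD032, Aurka inh, FGF2/Activin and 2iLif. The labels use FAK as a second name for FGF2/Activin and expand neither FAK nor PD032. They name no Aurora kinase compound and give no dose or time in the gel. No group had N2B27 alone, so each inhibitor could be set only against the other media. By its name, 2iLif also holds a pair of inhibitors with Lif, as in the maintenance medium, so it is not a reference free of inhibitors. The combination, PD032 and Aurka inh are called the inhibitor groups below. File names follow one style for FGF2/Activin and 2iLif and a different one for the inhibitor groups, which may mark separate runs. A group difference across these styles cannot be told apart from such a run difference.

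Library totals ran from 15199507 to 24202544 counts. Replicates were never as close as counting error alone would make them (chi-squared over its degrees of freedom, 1.22 to 17.4). The coefficient of variation between replicates was 8.91% to 11.1% in the inhibitor groups, 1.79% in FGF2/Activin and 4.52% in 2iLif. Since one estimate of the spread serves all groups, p-values among inhibitor groups can be too small. Nothing in the labels says that replicates were separate cultures, so the spread behind each p-value may be technical. All 7 embryonic stem cell markers checked, among them Pou5f1 and Sox2, had a mean above 1 CPM in every group, with summed levels from 1700 to 4180 CPM. In bulk RNA, fewer cells of a type and less RNA per cell cannot be told apart.

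IGF1 and IGF2 are secreted ligands that signal through the IGF1 receptor, a tyrosine kinase that acts through insulin receptor substrates, PI3 kinase and AKT. The IGF2 receptor, also the cation-independent mannose 6-phosphate receptor, carries IGF2 to lysosomes and lowers its level outside the cell. IGF binding proteins are secreted proteins that hold the ligands with high affinity and release them when proteases cleave them, so they can block or deliver IGF. In the mouse, Igf2 is expressed from the paternal allele and Igf2r mainly from the maternal allele in most tissues. Signalling through the IGF1 receptor is known to support survival and growth of pluripotent cells.

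On mm10 with GENCODE M21 coordinates, all 7 are protein-coding genes, and each value is a count over the whole gene. Igfbp2 (ENSMUSG00000039323) spans 72824503 to 72852474 on the plus strand of chromosome 1. Igfbp5 (ENSMUSG00000026185) spans 72857932 to 72874884 on the minus strand of the same chromosome, so their 3′ ends face each other across 5457 bases. Igfbp3 (ENSMUSG00000020427) spans 7206086 to 7213923 on chromosome 11, minus strand, 3539 bases from Igfbp1, which had 0 counts in all 15 libraries. Igfbp4 (ENSMUSG00000017493) lies elsewhere on chromosome 11, from 99041244 to 99054392, plus strand. Igf1r (ENSMUSG00000005533) spans 67952827 to 68233668, plus strand, and Igf2 (ENSMUSG00000048583) 142650766 to 142666816, minus strand, both on chromosome 7. Igf2r (ENSMUSG00000023830) spans 12682406 to 12769664 on chromosome 17, minus strand.

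The stretches before the transcription start of 3 binding protein genes are shown because Igfbp5 and Igfbp2 are neighbours, both higher in FGF2/Activin than in 2iLif, and Igfbp4 had a different order of groups. They are RefSeq sequences on GRCm38.p6, the assembly of mm10, printed 5′ to 3′ on each gene's own strand and without bases that GENCODE places inside the gene. The stretch of Igfbp5 is chr1:72874885-72875115, minus strand, that of Igfbp2 chr1:72824230-72824479, plus strand, and that of Igfbp4 chr11:99040994-99041243, plus strand. Capitals mark 1 motif per gene, spelled out after the sequences.
Igfbp5: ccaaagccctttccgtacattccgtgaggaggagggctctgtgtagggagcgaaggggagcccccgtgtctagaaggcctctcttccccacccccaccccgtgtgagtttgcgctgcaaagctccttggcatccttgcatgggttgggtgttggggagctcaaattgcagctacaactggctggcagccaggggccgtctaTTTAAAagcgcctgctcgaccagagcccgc
Igfbp2: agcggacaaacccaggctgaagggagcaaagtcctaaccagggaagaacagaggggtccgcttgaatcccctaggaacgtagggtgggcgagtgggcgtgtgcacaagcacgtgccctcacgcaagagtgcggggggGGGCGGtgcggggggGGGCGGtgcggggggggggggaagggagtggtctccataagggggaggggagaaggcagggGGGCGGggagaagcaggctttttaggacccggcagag
Igfbp4: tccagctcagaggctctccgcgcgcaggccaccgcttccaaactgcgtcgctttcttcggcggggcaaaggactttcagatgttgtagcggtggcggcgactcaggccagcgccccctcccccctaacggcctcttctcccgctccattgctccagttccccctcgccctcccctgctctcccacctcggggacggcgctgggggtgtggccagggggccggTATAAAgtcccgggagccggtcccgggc

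The 3 stretches differed in composition. Over the 250 bases before the RefSeq start, the first of a pair of starts for Igfbp2, Igfbp5 had 58.8% G and C, Igfbp2 67.2% and Igfbp4 69.2%, where the median of 32851 RefSeq promoters of mouse genes was 52.4%. Igfbp5 held 1 match to TTTAAA, an A/T-rich letter run found in 12.1% of those promoters, and Igfbp4 held 1 match to TATAAA, found in 12.4%. Igfbp2 held 3 matches to the GC box GGGCGG, found in 32.7%. Before the other RefSeq start of Igfbp2, which lies inside the gene and is not shown, G and C made up 56.4%, with 0 matches to GGGCGG and 1 to the AP-1 motif TGANTCA, found in 6.75%. Both strands were searched. TTTAAA and TGANTCA are their own reverse complements, and every other motif was counted in either direction. TTTAAA was added after the Igfbp5 sequence had been seen. A match is a letter match only.

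Igfbp5 encodes a binding protein that also attaches to extracellular matrix. Levels here are counts scaled by the library total (CPM), over scaled library totals, given in the order of replicates 1 to 3. Igfbp5 had 2.35, 2.98 and 1.92 CPM in the combination, 116, 109.7 and 100.5 CPM in PD032, 3.91, 3.15 and 2.76 CPM in Aurka inh, 54.6, 57.1 and 59.5 CPM in FGF2/Activin, and 1.63, 1.69 and 1.56 CPM in 2iLif. It was high in PD032 and FGF2/Activin and low in the other 3 media, with no overlap between the high and the low libraries.

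The PD032 mean of 108.8 ± 7.84 CPM (SD, n = 3, as for all means below) was the level that chose the gene. The combination's mean of 2.41 ± 0.534 CPM was 0.0222 times that of PD032. The mean in PD032 was 33.3 times that in Aurka inh, 66.9 times that in 2iLif and 1.91 times that in FGF2/Activin. These ratios carry no test. The choice had set PD032 against the other groups, so tests of Igfbp5 among those groups are not fully independent of it. Among them, FGF2/Activin was 35.1 times higher than 2iLif, a log2 fold change of 5.13 with SE 0.14 and edgeR adjusted p = 2.76e-14. Igfbp5 was lower in the combination than in FGF2/Activin by a log2 fold change of -4.58 (edgeR adjusted p = 6.15e-14) and lower in Aurka inh than in FGF2/Activin by -4.11 (edgeR adjusted p = 3.18e-13), both across the naming styles.

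Among the 3 media with little Igfbp5, differences were small. The combination was below Aurka inh by a log2 fold change of -0.47 (edgeR adjusted p = 0.034), with overlapping libraries, and the call was lost without combination replicate 1 or 3, without Aurka inh replicate 1 and in a fit of these 2 groups alone (adjusted p = 0.16), with adjusted p up to 0.204. Aurka inh was above 2iLif by 1.02 (edgeR adjusted p = 0.000242). The combination was above 2iLif by 0.55 (edgeR adjusted p = 0.0311), and that call was lost in 7 of 21 other settings, among them leaving out combination replicate 2, where adjusted p was 0.145.

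**Figure D1:**
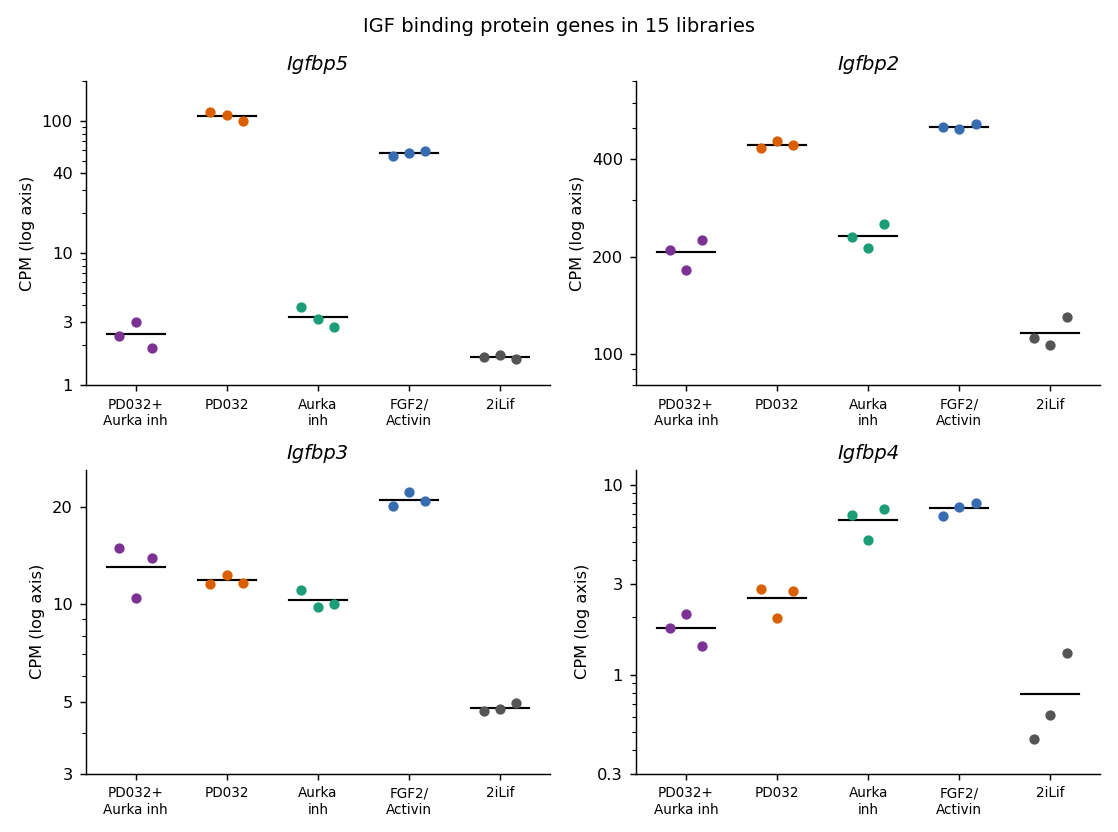
CPM of Igfbp5, Igfbp2, Igfbp3 and Igfbp4 on log axes in each of 15 libraries (points, replicates 1 to 3 from left to right) with the mean of each group (line). Igfbp5 and Igfbp2 were highest in PD032 and FGF2/Activin, Igfbp4 in FGF2/Activin and Aurka inh, and all 4 were lowest in 2iLif.

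Igfbp2, whose product is a binding protein widely made in embryos, was the most abundant of the 7 genes in every group. It had 210.1, 182 and 226 CPM in the combination, 435, 455 and 443 CPM in PD032, 231, 213 and 253 CPM in Aurka inh, 505, 499 and 514 CPM in FGF2/Activin, and 112, 107 and 129.7 CPM in 2iLif. FGF2/Activin and PD032 were high, the combination and Aurka inh lay between and overlapped each other, and 2iLif was below all others.

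Against PD032, the combination averaged 206 ± 21.9 CPM, with PD032 at 444 ± 9.89 CPM, or -1.11 on the log2 scale (edgeR, SE 0.08, adjusted p = 1.62e-08). PD032 was above Aurka inh, at 232 ± 19.8 CPM, by 0.94 (SE 0.08, edgeR adjusted p = 1.09e-07). The combination and Aurka inh differed by -0.17 (95% interval -0.34 to -0.002, edgeR adjusted p = 0.111). With replicate number as a block over the 9 inhibitor libraries, whose numbers pair them, that difference was called, with adjusted p = 0.00303.

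FGF2/Activin, at 506 ± 7.75 CPM, was 4.36 times higher in Igfbp2 than 2iLif, at 116 ± 12.1 CPM, or 2.12 on the log2 scale (edgeR, SE 0.08, adjusted p = 2.56e-12). Across the naming styles, all 3 inhibitor groups were above 2iLif, by 0.83 in the combination, 1.94 in PD032 and 1.00 in Aurka inh (edgeR adjusted p at most 5.6e-07). PD032 was below FGF2/Activin by -0.19 (edgeR adjusted p = 0.0518), a difference called in 10 of 21 other settings, with adjusted p from 0.00234 to 0.125.

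Igfbp5 and Igfbp2 ranked the inhibitor groups alike, with PD032 above Aurka inh and the combination. What follows is a description, since it holds the Igfbp5 values in PD032 that chose the gene. The CPM of Igfbp5 as a percentage of the CPM of Igfbp2 in the same library, not corrected for length, was 1.12, 1.63 and 0.849 in the combination, 26.7, 24.1 and 22.7 in PD032, 1.7, 1.48 and 1.09 in Aurka inh, 10.8, 11.4 and 11.6 in FGF2/Activin, and 1.46, 1.59 and 1.2 in 2iLif. PD032 libraries lay above FGF2/Activin libraries, and both above all others. Over the 15 libraries, which share group means, log2 CPM of the pair correlated at r = 0.913, which rests in part on those PD032 values.

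**Figure D2:**
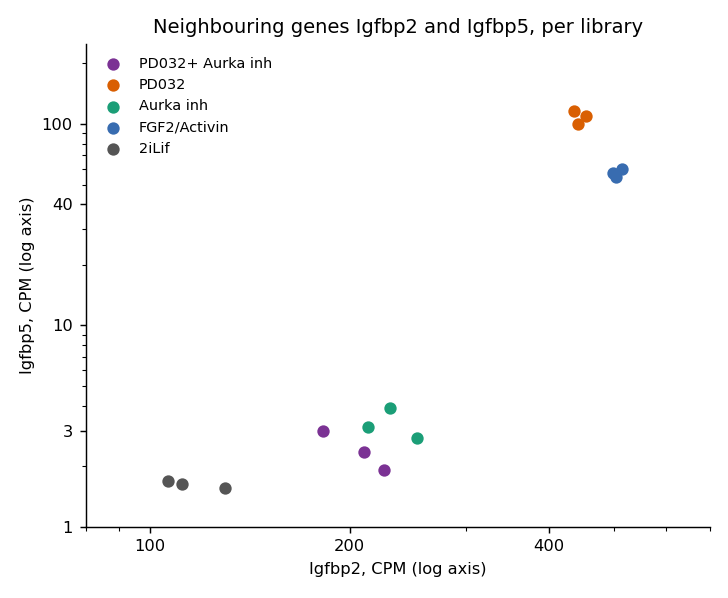
CPM of Igfbp5 (vertical, log axis) against CPM of Igfbp2 (horizontal, log axis) in each of 15 libraries, coloured by group. PD032 and FGF2/Activin sit apart at upper right, and PD032 is higher in Igfbp5 but not in Igfbp2 than FGF2/Activin.

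The nearest tested protein-coding genes on either side of the pair shared some of its differences and not others. Tns1, 1035346 bases beyond Igfbp5, encodes a focal adhesion protein. Like the pair, it was higher in FGF2/Activin than in 2iLif, by 1.15 on the log2 scale (edgeR adjusted p = 0.000122), and higher in PD032 than in Aurka inh, by 1.77 (edgeR adjusted p = 0.000196). It was also higher in the combination than in Aurka inh by a log2 fold change of 1.75 (edgeR adjusted p = 0.000331), while the combination and PD032 differed by -0.02 (edgeR adjusted p = 0.966). Unlike the pair, whose means were lowest in 2iLif, Tns1 was below 2iLif in all 3 inhibitor groups. Across the naming styles it differed by -1.281 in the combination, -1.265 in PD032 and -3.036 in Aurka inh (edgeR adjusted p at most 0.000285). Rpl37a, a ribosomal protein gene 110689 bases beyond Igfbp2, differed by -0.16 between FGF2/Activin and 2iLif (edgeR adjusted p = 0.232). In PD032, where the pair was higher, Rpl37a was lower than in Aurka inh by -0.30 (edgeR adjusted p = 0.0383) and than in 2iLif by -0.31 (edgeR adjusted p = 0.0251). These neighbours were looked up after the pair's values had been seen.

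Igfbp4, whose product mostly holds back IGF until the protease PAPPA cleaves it, had a different order. It had 1.75, 2.09 and 1.42 CPM in the combination, 2.83, 1.99 and 2.74 CPM in PD032, 6.91, 5.1 and 7.49 CPM in Aurka inh, 6.82, 7.66 and 8.05 CPM in FGF2/Activin, and 0.455, 0.609 and 1.3 CPM in 2iLif. Aurka inh and FGF2/Activin were high and overlapped, PD032 and the combination overlapped at a lower level, and 2iLif was lowest.

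PD032, at 2.52 ± 0.466 CPM, was below Aurka inh, at 6.5 ± 1.25 CPM, by -1.36 on the log2 scale (SE 0.21; edgeR, adjusted p = 7.6e-05). The combination, at 1.75 ± 0.337 CPM, was below Aurka inh by -1.91 (SE 0.23, edgeR adjusted p = 7.75e-06). Between the combination and PD032 the difference of -0.55 was not called (edgeR adjusted p = 0.0842), but it was with the replicate block, at adjusted p = 0.032. Igfbp4 was 9.52 times higher in FGF2/Activin than in 2iLif, or 3.24 on the log2 scale (edgeR, SE 0.28, adjusted p = 2.85e-08), while Aurka inh and FGF2/Activin differed by -0.20 (95% interval -0.62 to 0.22, edgeR adjusted p = 0.405). The gene had 36 counts in all in 2iLif, and the call of the combination above 2iLif, 1.13 with edgeR adjusted p = 0.0093, was lost without 2iLif replicate 1, at 0.0586.

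The summed level of a list of 7 fibroblast markers ran in the same order of groups as Igfbp4. That sum was 5.22 to 7.29 CPM in the combination, 10.8 to 14.3 in PD032, 12.9 to 20.6 in Aurka inh, 21.3 to 22.9 in FGF2/Activin and 4.29 to 5.14 in 2iLif. Thy1 made most of the sum in every group but 2iLif and had a mean of 15.3 CPM in Aurka inh and 12.5 CPM in FGF2/Activin. Not every marker followed the order of the sum. Dcn had a mean of 4.55 CPM in FGF2/Activin, 0.113 in PD032 and 0.0325 in Aurka inh, and Pdgfrb had 2.09 CPM in 2iLif, above 0.869 in Aurka inh. The marker Lum was at 0 in all groups but Aurka inh, and Dcn was at 0 in the combination and in 2iLif. Their part in the Igfbp4 result was not tested.

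Igfbp3, whose product carries most IGF in blood and is also made by many tissues, varied less among the inhibitor groups. It had 14.9, 10.4 and 13.9 CPM in the combination, 11.5, 12.4 and 11.7 CPM in PD032, 11.1, 9.82 and 9.99 CPM in Aurka inh, 20.1, 22.1 and 20.8 CPM in FGF2/Activin, and 4.68, 4.74 and 4.95 CPM in 2iLif. FGF2/Activin was above and 2iLif below every inhibitor library. FGF2/Activin exceeded 2iLif by 2.13 on the log2 scale (SE 0.12; edgeR, adjusted p = 2.8e-10).

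The combination exceeded Aurka inh in Igfbp3 by 0.35 (SE 0.11, edgeR adjusted p = 0.0239), with overlapping libraries. That call was lost in 5 of 21 other settings, among them leaving out combination replicate 1, where adjusted p was 0.159. The combination and PD032 differed by 0.15 (95% interval -0.08 to 0.38, edgeR adjusted p = 0.292), a difference called without combination replicate 2, at 0.0184. PD032 and Aurka inh differed by 0.20 (95% interval -0.04 to 0.44, edgeR adjusted p = 0.163).

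Igf1r, the signalling receptor, spanned a narrow range. It had 32.1, 36.4 and 33.5 CPM in the combination, 45.6, 37 and 39.8 CPM in PD032, 36.1, 36.3 and 35 CPM in Aurka inh, 49.3, 50.7 and 47 CPM in FGF2/Activin, and 34.6, 36.2 and 32.4 CPM in 2iLif. FGF2/Activin was above every other library, PD032 was next, and the combination, Aurka inh and 2iLif overlapped.

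FGF2/Activin, at 49 ± 1.88 CPM, exceeded 2iLif, at 34.4 ± 1.92 CPM, by 0.51 on the log2 scale (SE 0.08; edgeR, adjusted p = 2.05e-05). The combination was below PD032 by -0.27 (SE 0.07, edgeR adjusted p = 0.00866), but without PD032 replicate 1, its highest library, adjusted p was 0.0618, and without combination replicate 1 it was 0.052. PD032 was above Aurka inh by 0.19 (SE 0.07, edgeR adjusted p = 0.0495), and 17 of 21 other settings lost that call, with adjusted p up to 0.277. Likewise PD032 was above 2iLif by 0.25 (edgeR adjusted p = 0.00978), and the call was lost without PD032 replicate 1 or 2iLif replicate 3.

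Igf2r was the only one of the 7 genes that was highest in 2iLif. It had 71.3, 63.8 and 63.8 CPM in the combination, 76.7, 64.9 and 72.3 CPM in PD032, 70.7, 61.3 and 70.01 CPM in Aurka inh, 75.2, 77.7 and 77.4 CPM in FGF2/Activin, and 91.5, 92.6 and 87 CPM in 2iLif. All 2iLif libraries were above all others, and the inhibitor groups overlapped one another.

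FGF2/Activin, at 76.8 ± 1.38 CPM, was below 2iLif, at 90.4 ± 2.97 CPM, by -0.24 on the log2 scale (SE 0.07; edgeR, adjusted p = 0.00761). Across the naming styles the combination, PD032 and Aurka inh were below 2iLif by -0.45, -0.34 and -0.42 (edgeR adjusted p at most 0.000486). Among the inhibitor groups no difference was called, with edgeR adjusted p from 0.237 to 0.829. With the replicate block the combination was below PD032 by -0.11 with adjusted p = 0.0419. Aurka inh was below FGF2/Activin by -0.19 (edgeR adjusted p = 0.0335), a call lost in 10 of 21 other settings. The combination was below FGF2/Activin by -0.21 (edgeR adjusted p = 0.0144), which became 0.0598 without combination replicate 3.

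Igf2, the ligand gene, was near the limit of detection. It had 2 to 31 counts per library, or 0.322, 0.209 and 0.291 CPM in the combination, 1.01, 0.322 and 0.857 CPM in PD032, 0.409, 0.126 and 0.104 CPM in Aurka inh, 1.18, 1.98 and 1.28 CPM in FGF2/Activin, and 0.325, 0.338 and 0.326 CPM in 2iLif. FGF2/Activin was above all other libraries, and PD032 replicate 2 lay among the low ones. FGF2/Activin had 69 counts in all and 2iLif 15, or 2.15 on the log2 scale (edgeR, SE 0.44, adjusted p = 0.000449).

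The combination was below PD032 in Igf2 by -1.41 (edgeR adjusted p = 0.0188), with overlapping libraries, and the call was lost without combination replicate 2, PD032 replicate 1 or PD032 replicate 3, with adjusted p up to 0.0949. PD032 exceeded Aurka inh by 1.69 (edgeR adjusted p = 0.00957), and without PD032 replicate 1 adjusted p was 0.0503. Across the naming styles, PD032 exceeded 2iLif by 1.16 (edgeR adjusted p = 0.0437), a call lost in 9 of 19 other settings, with adjusted p up to 0.166. PD032 was below FGF2/Activin by -0.98 (edgeR adjusted p = 0.0247), and the call was lost in 4 of 21 other settings, among them leaving out PD032 replicate 2 or FGF2/Activin replicate 2, with adjusted p up to 0.145. Igf2os, antisense to Igf2, had at most 6 counts in a group, and Airn, which runs through Igf2r from the other strand, at most 4. The library kit keeps strand, but the strand setting of the counting is not given in the sources used here, so antisense reads could add to Igf2 or Igf2r.

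**Figure D3:**
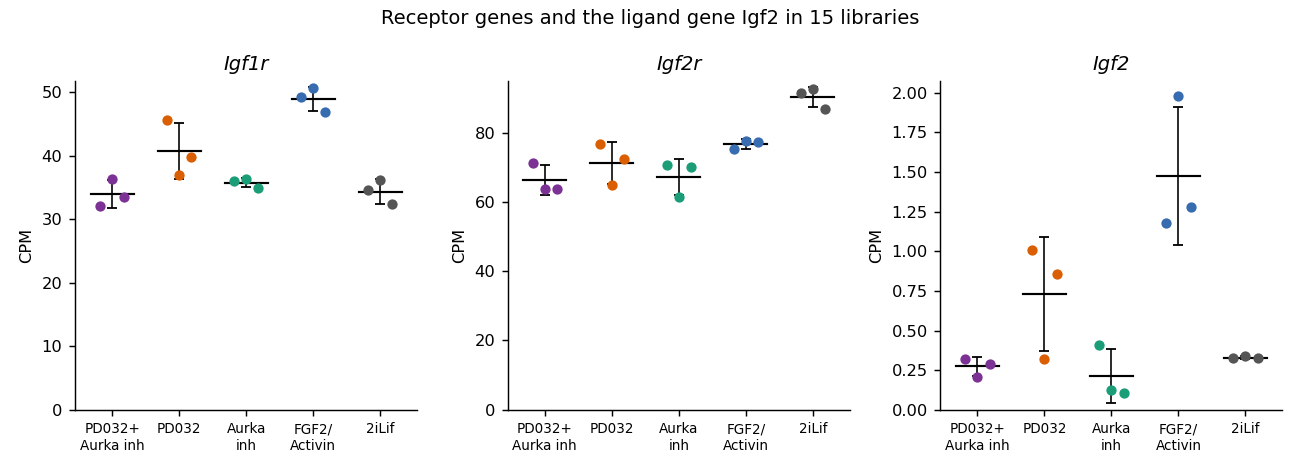
CPM of Igf1r, Igf2r and Igf2 from 0 in each of 15 libraries (points), with the mean (line) and SD (bar) of the 3 libraries of each group. Igf1r and Igf2 were highest in FGF2/Activin, and Igf2r was highest in 2iLif.

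Divided by exon length, the levels of the genes could be compared with one another. In PD032, Igfbp2 had 240.5 CPM per kb, Igfbp5 18.1, Igf2r 7.66, Igfbp3 3.78, Igf1r 2.43, Igfbp4 0.571 and Igf2 0.127. In FGF2/Activin, Igfbp5 had 9.5 CPM per kb and Igf2r 8.25. In 2iLif, Igfbp2 had 62.8 CPM per kb and Igf2r 9.71, while Igfbp5 stood at 0.271, below Igfbp3 at 1.53 and Igf1r at 2.05. Igf2 was the lowest of the 7 per length in every group.

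Within the naming styles, the 7 genes moved most in FGF2/Activin against 2iLif, where 6 were higher and 1, Igf2r, was lower. Of all genes tested in that comparison 33.3% were called higher and 32.6% lower, 65.9% in all. The median log2 fold change of the 7 was 2.13, beside -0.01 over all genes tested. All 7 calls held in 21 other settings each.

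Between the combination and PD032, 3 of the 6 genes with a test were lower (Igfbp2, Igf1r and Igf2) and 3 were not called, where 23.8% of all genes were called lower, 20.0% higher and 43.7% in all. Between the combination and Aurka inh, Igfbp4 and Igfbp5 were lower, Igfbp3 was higher and 4 were not called, and 16.3% of all genes were called lower, 18.6% higher and 34.9% in all. Between PD032 and Aurka inh, 3 of 6 genes with a test were higher (Igfbp2, Igf1r and Igf2), Igfbp4 was lower and 2 were not called, and 25.8% of all genes were called higher, 19.7% lower and 45.5% in all. These 3 comparisons share libraries with one another.

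**Figure D4:**
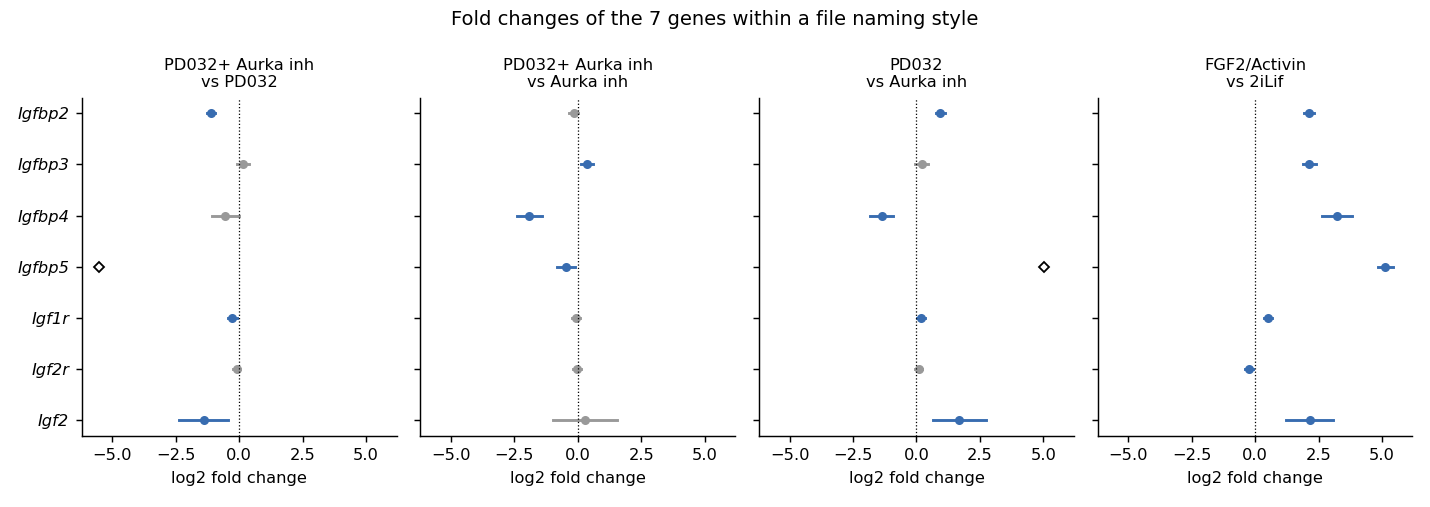
Log2 fold changes of the 7 genes in the 4 comparisons within a naming style, as points with 95% intervals, blue where the edgeR adjusted p was under 0.05 and grey where not. Open diamonds mark Igfbp5 in comparisons with PD032, -5.51 and 5.04, which carry no test.

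Across the naming styles the directions differed between comparisons with 2iLif and with FGF2/Activin. Against 2iLif, PD032 had 5 of 6 genes with a test higher and 1 lower, where 32.1% of all genes were called higher, 30.9% lower and 63.0% in all. Aurka inh had 4 of 7 higher and 1 lower, beside 28.9%, 29.5% and 58.4% in all. The combination had 4 of 7 higher and 1 lower, beside 23.8%, 23.8% and 47.6% in all. The gene that was lower was Igf2r each time.

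Against FGF2/Activin, no gene of the set with a test was called higher in any inhibitor group. Igfbp5, which had no test in PD032, had a higher mean there, at 108.8 CPM against 57.1 CPM in FGF2/Activin. PD032 had 4 of 6 genes with a test lower, where 29.0% of all genes were called lower and 59.0% in all. Aurka inh had 6 of 7 lower, beside 30.1% and 55.1%, and the combination 7 of 7, beside 33.8% and 66.8%. For higher calls the shares of all genes were 30.0%, 25.0% and 33.0%, each in the same order of groups. The 3 comparisons share the FGF2/Activin libraries.

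Candidates for a similar pattern were 9492 or 9493 tested genes with a mean of at least 10 CPM in their highest group, without clone or predicted-gene names. Genes with the most similar pattern over the 15 libraries were named among them by the highest Pearson r of log2 CPM. Such an r rests mainly on 5 group means and carries no p, and for Igfbp5 it holds the values that chose the gene. For Igfbp5 they were Dgkz, a diacylglycerol kinase gene (r = 0.989), Cdk5r2, an activator of CDK5 (r = 0.989), and Hmgcs1, an enzyme of cholesterol synthesis (r = 0.988). For Igfbp5, 148 candidates had r above 0.9. Cdk5r2 had 2.51 ± 0.829 CPM in the combination, 25.8 ± 1.4 in PD032, 2.56 ± 0.444 in Aurka inh, 12.3 ± 0.835 in FGF2/Activin and 1.54 ± 0.0789 in 2iLif. Cdk5r2 was thus high in the same groups as Igfbp5 and, like it, highest in PD032.

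For Igfbp2 the closest were Crmp1, which encodes a dihydropyrimidinase-like protein of axon guidance (r = 0.992), Rims4 (r = 0.987) and the ephrin gene Efnb2 (r = 0.987), and 408 candidates had r above 0.9. Crmp1 had 30 ± 5.05 CPM in the combination, 141 ± 9.77 in PD032, 40 ± 7.31 in Aurka inh, 144 ± 1.05 in FGF2/Activin and 11.4 ± 0.625 in 2iLif. For Igfbp4 they were the potassium channel gene Kcnj3 (r = 0.976), Rgs11, a regulator of G protein signalling (r = 0.966), and Ccdc194 (r = 0.962). Kcnj3 was high in Aurka inh and FGF2/Activin, at 11.3 ± 2.95 and 10.2 ± 0.572 CPM.

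For Igfbp3 they were Tmem184c (r = 0.959), the transcription factor gene Foxp1 (r = 0.959) and Phf21a (r = 0.953). For Igf1r they were Sestd1 (r = 0.938), Bend4 (r = 0.932) and the cell adhesion gene Cntn2 (r = 0.93), and for Igf2 the zinc finger genes Zfp687 (r = 0.956), Zbtb34 (r = 0.949) and Zbtb5 (r = 0.946). For Igf2r they were Cpne3 (r = 0.965), the planar polarity gene Celsr1 (r = 0.962) and Jpt2 (r = 0.949). Celsr1 had means from 26.3 ± 9.11 to 38.6 ± 0.898 CPM in the other groups, against 79.8 ± 3.63 CPM in 2iLif, where it too was highest.

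Igf1, the other ligand gene, was detected almost only in PD032. It had 44, 45 and 58 counts there and 147 in all, against 3 in the combination and 0 in Aurka inh, FGF2/Activin and 2iLif. Per total counts, PD032 was 49.8 times higher than the combination (95% interval 16.7 to 244, counting error only). It was at least 43.8-fold higher in PD032 than in Aurka inh, at least 35.8-fold higher than in FGF2/Activin and at least 35-fold higher than in 2iLif, taking 3 counts over a group as the limit for 0. In PD032 this was 2.31 ± 0.257 CPM.

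Of 65 genes in 4 lists of the pathway, 56 were tested. The other 9 were Ins1, Ins2, Insrr, Igfbp1, Igfbp7, Pappa, Pappa2, H19 and Airn, none of which reached a mean of 0.5 CPM in any group. Between FGF2/Activin and 2iLif 27 were higher, 15 lower and 14 not called, 75% against 65.9% of all genes. Between the combination and PD032 8 were higher, 26 lower and 22 not called, 60.7% against 43.7%, with a median log2 fold change of -0.38 beside 0.01 over all genes. By list, that median was -0.085 for signalling inside the cell, -0.557 for imprinted genes and -0.362 for the Igf2bp genes. For ligands, receptors, binding proteins and regulators it was -1.156. Between the combination and Aurka inh 8 were higher, 17 lower and 31 not called, 44.6% against 34.9%, and without Aurka inh replicate 3 the number called fell to 16, against 25 with it, which was 28.6% beside 25.8% of all genes in that fit. Between PD032 and Aurka inh 21 were higher, 5 lower and 30 not called, 46.4% against 45.5%, and the replicate block called 40 of 55, 72.7% beside 58.3% of all genes in that fit. Igf1 and Igfbp6 are among the 56 tested genes and had their highest level in PD032. With levels there as low as elsewhere, they might not have been tested. Counts of the 4 lists in comparisons with PD032 are therefore descriptions.

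Among ligands, receptors and secreted regulators, 6 of 8 tested genes were lower in the combination than in PD032 and 1 was higher, where 23.8% of all genes were lower and 20.0% higher. Igf1 and Igfbp6 are among the 6 and had their highest level in PD032, at a mean of 2.31 and 1.22 CPM, against at most 0.402 CPM elsewhere. Had they been as low in PD032, they might not have been tested, so the count is a description. Htra1, a secreted protease that cleaves IGF binding proteins including IGFBP5, had 0.451 ± 0.0617 CPM in the combination and 2.51 ± 0.319 CPM in PD032 (edgeR adjusted p = 2.13e-06). Htra1 was highest in 2iLif, where Igfbp5 was lowest, at 3.41 ± 0.359 CPM, with 2.33 ± 0.894 CPM in FGF2/Activin and 0.5 ± 0.0802 CPM in Aurka inh. The insulin receptor gene Insr had 9.67, 8.46 and 8.12 CPM in the combination, 12.8, 10.2 and 12.6 CPM in PD032, 11.6, 9.75 and 12.5 CPM in Aurka inh, 14.8, 14.2 and 14.8 CPM in FGF2/Activin, and 7.93, 6.9 and 8.99 CPM in 2iLif. It was lower in the combination than in PD032 by a log2 fold change of -0.44 (edgeR adjusted p = 0.00788) and than in Aurka inh by -0.37 (edgeR adjusted p = 0.0269, a call lost in 5 of 21 other settings, with adjusted p up to 0.125). FGF2/Activin exceeded 2iLif by 0.88 (edgeR adjusted p = 1.43e-05). Stc2, an inhibitor of PAPPA, was highest in the combination, at 254 ± 17.7 CPM, above PD032 at 222 ± 8.23 CPM (edgeR adjusted p = 0.00657), with FGF2/Activin lowest at 72.8 ± 2.26 CPM.

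The insulin receptor substrates, adaptors that pass the signal on, were higher in FGF2/Activin than in 2iLif. Irs4 had 0.23, 0.209 and 0.0833 CPM in the combination, 2.97, 2.09 and 3.34 CPM in PD032, 1.09, 0.252 and 0.572 CPM in Aurka inh, 6.23, 6.57 and 6.2 CPM in FGF2/Activin, and 0.13, 0.135 and 0 CPM in 2iLif. FGF2/Activin exceeded 2iLif by 6.07 on the log2 scale (SE 0.47; edgeR, adjusted p = 1.01e-08), and the combination was below PD032 by -4.00 (SE 0.42, edgeR adjusted p = 1.16e-06). Irs1 averaged 0.472 ± 0.0963 CPM in the combination, 1.04 ± 0.388 in PD032, 1.12 ± 0.32 in Aurka inh, 2.02 ± 0.068 in FGF2/Activin and 0.419 ± 0.194 in 2iLif. Its call between the combination and PD032 (edgeR adjusted p = 0.0132) was lost without PD032 replicate 1 or 3, with adjusted p up to 0.0683. The combination was also below Aurka inh in Irs1, by -1.25 (edgeR adjusted p = 0.00974), and without Aurka inh replicate 1 adjusted p was 0.06.

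Irs2 had 32.9, 34.8 and 31.2 CPM in FGF2/Activin, against 9.94, 11.4 and 8.99 CPM in 2iLif (edgeR adjusted p = 1.59e-05). The combination, at 13 ± 3.5 CPM, was below Aurka inh, at 22.9 ± 6.56 CPM, by -0.82 (edgeR adjusted p = 0.0133), with overlapping libraries. That call was lost without combination replicate 2, Aurka inh replicate 1 or Aurka inh replicate 3, with adjusted p up to 0.0666. Replicate 2, the shallowest library of each inhibitor group, was the lowest in Irs2 in all 3 of them.

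Inside the cell, 13 of 29 genes were higher and 8 lower in FGF2/Activin than in 2iLif, 72.4% in all beside 65.9% of all genes tested. In the combination against PD032, 10 were lower and 4 higher, 48.3% beside 43.7%, a share near that of all genes. Grb10, an adaptor that restrains the insulin and IGF1 receptors, had 246 ± 17.9 CPM in the combination, 363 ± 9.89 in PD032, 259 ± 27.6 in Aurka inh, 320 ± 7.14 in FGF2/Activin and 197 ± 3.84 in 2iLif. PD032 was above the other groups with no overlap, and the combination was below it by -0.56 (edgeR adjusted p = 4.42e-06). Foxo3, a transcription factor that AKT keeps out of the nucleus, was higher in PD032, at 137 ± 11.6 CPM, than in Aurka inh, at 62.8 ± 8.76 CPM (edgeR adjusted p = 5.62e-08).

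The Igf2bp genes encode RNA-binding proteins named for binding Igf2 mRNA. Igf2bp1 was abundant and nearly level, with means from 534 to 628 CPM and no call between inhibitor groups (edgeR adjusted p from 0.136 to 0.646). Igf2bp2 had 187, 177 and 178 CPM in the combination, 252, 236 and 249 CPM in PD032, 120.4, 126 and 110.1 CPM in Aurka inh, 103, 104 and 104 CPM in FGF2/Activin, and 130, 126 and 129.9 CPM in 2iLif. PD032 was highest and the combination second, with no overlap between them or with the rest. PD032 exceeded Aurka inh by 1.05 on the log2 scale (SE 0.05; edgeR, adjusted p = 1.48e-10), and the combination was below PD032 by -0.44 (edgeR adjusted p = 2.57e-06). Igf2bp3 was also lower in the combination than in PD032, by -0.36 (edgeR adjusted p = 3.42e-05), and lower in FGF2/Activin than in 2iLif by -0.36 (edgeR adjusted p = 1.53e-05).

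**Figure D5:**
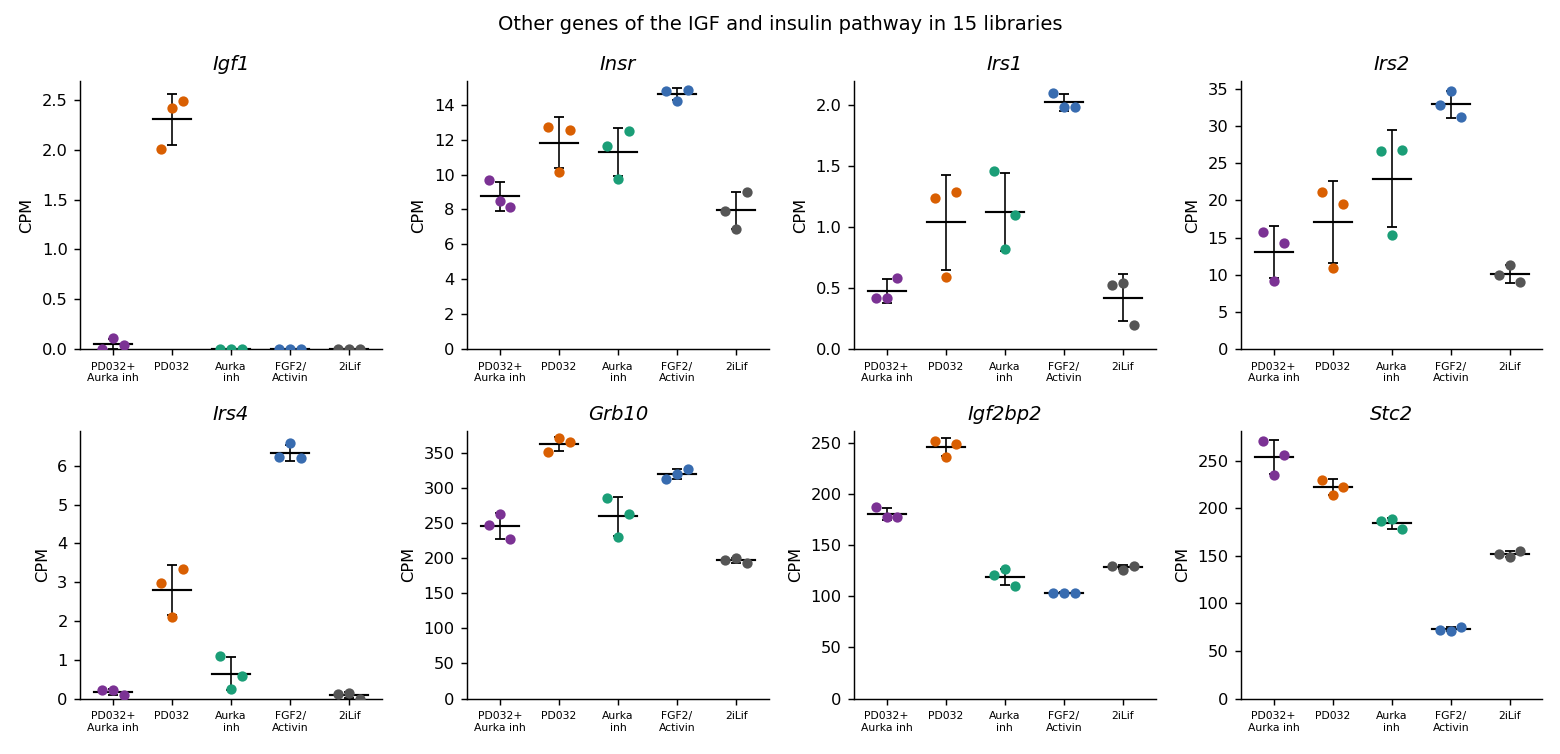
CPM of 8 other genes of the IGF and insulin pathway from 0 in each of 15 libraries (points), with the mean (line) and SD (bar) of the 3 libraries of each group. Igf1 was detected almost only in PD032, and the receptor substrates Irs1, Irs2 and Irs4 were highest in FGF2/Activin.

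Of 16 tested imprinted genes, which like Igf2 and Igf2r are expressed mainly from one parental allele, 10 were higher and 2 lower in FGF2/Activin than in 2iLif, where 33.3% of all genes were higher and 32.6% lower. Plagl1, a zinc finger transcription factor, had 11.4, 18.9 and 11.4 CPM in the combination, 0.594, 1.18 and 0.729 CPM in PD032, 2.09, 3.71 and 1.51 CPM in Aurka inh, 1.05, 1.4 and 1.34 CPM in FGF2/Activin, and 38, 37.9 and 33.6 CPM in 2iLif. It was higher in the combination than in PD032 by 4.07 on the log2 scale (SE 0.30; edgeR, adjusted p = 1.9e-08) and than in Aurka inh by 2.54 (SE 0.26, edgeR adjusted p = 1.53e-06), and lower in FGF2/Activin than in 2iLif by -4.84 (SE 0.28, edgeR adjusted p = 2.65e-10). Cdkn1c, a cyclin-dependent kinase inhibitor, was higher in FGF2/Activin, at 19.2 ± 1.49 CPM, than in 2iLif, at 1.89 ± 0.301 CPM (edgeR adjusted p = 7.86e-12).

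Peg10 and Peg3 differed in opposite directions between PD032 and Aurka inh. Peg10, derived from a retrotransposon, had 44.7 ± 5.83 CPM in PD032 and 285 ± 29.3 CPM in Aurka inh (edgeR adjusted p = 1.16e-08), while Peg3, a zinc finger gene, had 329 ± 53.8 CPM in PD032 and 121 ± 27.5 CPM in Aurka inh (edgeR adjusted p = 1.81e-06). In the combination, Peg10 averaged 90.4 ± 30.7 CPM, above PD032 (edgeR adjusted p = 3e-04) and below Aurka inh (edgeR adjusted p = 3.28e-06). Mest, at 46.9 ± 6.18 CPM in the combination and 106 ± 14.1 CPM in PD032, was lower in the combination (edgeR adjusted p = 4.3e-07), and Peg3 was lower there too, at 89.5 ± 17.2 CPM (edgeR adjusted p = 1.15e-07). Snrpn, at 70.7 ± 4.46 CPM, and Nnat, at 2.66 ± 0.557 CPM, were lower in the combination than in Aurka inh, at 137 ± 10.8 and 5.2 ± 0.58 CPM (edgeR adjusted p = 7.62e-08 and 0.00174).

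Across the naming styles, 38 of the 56 tested genes of the 4 lists, imprinted genes included, were called in PD032 against 2iLif. For Aurka inh the number was 39 and for the combination 35. The shares were 67.9%, 69.6% and 62.5%, beside 63.0%, 58.4% and 47.6% of all genes. Against FGF2/Activin the numbers were 33, 36 and 41, or 58.9%, 64.3% and 73.2%, beside 59.0%, 55.1% and 66.8% of all genes. Kcnq1ot1, a long noncoding RNA gene, averaged 13.4 ± 4.14 CPM in the combination, 13.2 ± 3 in PD032 and 16.8 ± 6.64 in Aurka inh, against 3.64 ± 1.32 in FGF2/Activin and 3.75 ± 0.867 in 2iLif. It thus followed the naming styles. Meg3, another one, was higher in PD032, at 459 ± 53.5 CPM, than in FGF2/Activin, at 178 ± 9.05 CPM (edgeR adjusted p = 9.85e-09), and higher in the combination, at 313 ± 23.7 CPM, than in 2iLif, at 157 ± 19.4 CPM (edgeR adjusted p = 5.83e-07). Phlda2, a pleckstrin homology domain gene, was lower in the combination, at 3.37 ± 0.553 CPM, and in Aurka inh, at 4.23 ± 0.556 CPM, than in FGF2/Activin, at 14 ± 0.455 CPM (edgeR adjusted p = 3.75e-09 and 5.44e-08).

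Markers of other cell types were low beside the embryonic stem cell list. Over 5 lists and all groups, summed levels reached at most 8.49 CPM for 8 primitive endoderm markers, 22.6 CPM for 8 mesoderm markers, 57.9 CPM for 6 trophoblast markers and 22.9 CPM for the 7 fibroblast markers. Tfap2c made most of the trophoblast sum in every group but FGF2/Activin, with a mean of 53.7 CPM in 2iLif. In FGF2/Activin, Tfap2c had 1.74 CPM and Krt7, of the same list, 5.41 CPM. The 7 neuroectoderm markers reached 107 to 120 CPM in the combination, 126 to 154 CPM in PD032, 60.3 to 83.6 CPM in Aurka inh, 112 to 122 CPM in FGF2/Activin and 87.5 to 90.1 CPM in 2iLif. Most of that sum was Tubb3 and Nes. Pax6, of the same list, had a mean of 4.22 CPM in the combination, 11.5 in PD032, 0.735 in Aurka inh, 0.861 in FGF2/Activin and 0.31 in 2iLif. Like Pax6, Tubb3 was highest in PD032, at 91.5 CPM. Nes was highest in FGF2/Activin, at 46.3 CPM, and Sox1 in 2iLif, at 2.38 CPM. Pax3 was at 0 in the combination, PD032 and Aurka inh, Zic1 in the combination and 2iLif, and Hes5 in the combination. The embryonic stem cell list, at 3020 to 3400 CPM in the combination, 1700 to 2170 in PD032, 1910 to 2470 in Aurka inh, 2050 to 2100 in FGF2/Activin and 3950 to 4180 in 2iLif, had its lowest median in PD032. Of its markers, Pou5f1 was lowest in PD032, at 449 CPM, and Dppa5a was lowest in PD032 and Aurka inh, at 307 CPM in each. Sox2, Nanog, Zfp42 and Esrrb were lowest in FGF2/Activin, and Utf1 in 2iLif. The part of these lists in the results above was not tested.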

How the data were processed

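Poly(A)-selected RNA of 15 libraries, 3 for each of 5 culture groups taken from the sample titles, was analysed from 2 tables. The authors deposited whole-number counts per gene, used for every test, and normalized log2 values, used only as a check: they gave the same sign as the fits in 70 of 70 comparisons of the 7 genes. The tools and build named per the submitters' processing notes are STAR, DESeq2 and mm10. Their versions, the counting tool and the strandedness used in counting are not given in the sources used. The 7 genes, the lists and the tests were chosen with earlier results of these data known.

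Of 49585 genes, 49326 matched GENCODE M21 by identifier. filterByExpr kept 15223 genes. Counts were TMM-scaled and fitted over all 15 libraries with a term per group by the quasi-likelihood test of edgeR 4.0.16 (R 4.3.3, limma 3.58.1), and a call needed an adjusted p below 0.05 (Benjamini-Hochberg, 15223 genes). CPM use TMM-scaled totals, with a prior count of 2 on the log2 scale. Fold changes are the first-named group over the second, and the 10 comparisons are all pairs of groups. No multiple testing over comparisons was corrected. The fit was tested on simulated counts of 15223 genes with 200 changed in PD032 against 2iLif. It called 45 of 67 genes changed 1.5 times, 52 of 67 changed 2 times and 59 of 66 changed 4 times. Each of these calls was in the right direction, and 5 of 15023 unchanged genes were called. In the deposited counts 63.0% of genes were called in this comparison, and the fit was not tested with so large a share changed. Its behaviour with a spread that differs between groups, as between these libraries, was not tested either.

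Beside the 7 genes, the text named Insr, Igf1, Irs1, Irs2, the Igf2bp genes and Grb10, up to 4 called pathway genes per comparison with the largest change and a mean of at least 5 CPM in the higher group, and 3 genes of most similar pattern for each member. A result under this rule is not reported here. Htra1, Stc2 in the combination and the neighbours Tns1 and Rpl37a were chosen after their values were seen.

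Equal replicate numbers pair the inhibitor libraries: deviations from group means correlated at r = 0.17 to 0.483 in all 9 pairs, and the number fitted best in 8 of 9. Blocked values are given where they change a call. Alternatives were DESeq2 1.42.0 size factors or Wald test, library size alone, no filter, the 2 groups alone, the block, and each library left out. Promoters came from RefSeq, matched by symbol for 7 of 7 genes.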

Additional observations from a re-analysis of the deposited data

How the results depend on the processing

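Of 66 fold changes of the 7 genes with a test, 48 kept their call in all 19 to 21 other settings, and 18 gained or lost it in at least 1. Values that changed sign were all uncalled: Igf1r in the combination against 2iLif, -0.02, was 0.011 with library size alone, 0.017 without combination replicate 1 and 0.011 without 2iLif replicate 2, in a leave-one-out range of -0.068 to 0.017. Igf2r in the combination against Aurka inh, -0.02, was 0.003 without combination replicate 2, 0.004 without combination replicate 3, 0.013 without Aurka inh replicate 1 and 0.005 without Aurka inh replicate 3, with a lowest value of -0.099. Igf2 in the same comparison, 0.29, was -0.053 without Aurka inh replicate 3 and at most 1.233 when another library was left out. Of 60 named pathway results 55 kept their call in every setting and 0 changed sign. Beside those given above, Igf2bp3 in the combination against Aurka inh (0.21) lost it with only these 2 groups. The number of all genes called in the combination against Aurka inh was 5311, and 3480 with only these 2 groups fitted. Leaving out one library gave 16 to 29 pathway genes called in that comparison, against 25. With the replicate block, pathway genes called in PD032 against Aurka inh numbered 40, against 26, and no other count of calls moved by over 1.5 times. Between FGF2/Activin and 2iLif, and across the naming styles, libraries shared only a number (r from -0.045 to 0.065). There the block, fitted on the 2 groups, ended the calls of Igfbp5 in the combination against 2iLif, Igf2 in PD032 against FGF2/Activin and Igf2r in Aurka inh against FGF2/Activin, and added Igfbp2 in PD032 against FGF2/Activin. The cause of these changes was not tested, except that fits of 2 groups hold fewer libraries. Low counts limit the values of Igf2, Igf1, Irs4 and, in 2iLif, Igfbp4.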
